A study of Mus musculus with 32 samples.

Results

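The collagen genes outside type IV were taken from the RNA-sequencing table by symbol. A gene was included when its name had the form Col, a number, a, and a number, did not begin with Col4a, and had a score above the lowest value of 1 in at least 1 sample. All 37 genes that matched by name met this condition, of 22850 genes in the table. The 6 type IV genes are not described here.

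The samples were endothelial cells (ECs), macrophages (MΦs), and β cells sorted from islets of adult mice on a C57BL/6 background. Every mouse, controls included, carried MIP-GFP, in which the mouse insulin 1 promoter marks β cells with GFP, together with RIP-rtTA, a rat insulin promoter driving the doxycycline-dependent activator, and TetO-VEGF-A, which gives human VEGF-A in β cells when doxycycline is present. No Dox mice received no doxycycline, 1wk Dox mice had it in the drinking water for 1 week, and 1wk WD mice had it for 1 week and were then kept without it for 1 week. Sorting took GFP+ cells free of CD31 and CD11b as β cells, CD31+ cells as ECs, and CD11b+ cells as MΦs, and islets of several mice were pooled for a sample. In that order of treatment there were 4, 5, and 3 β cell samples, 4, 1, and 5 EC samples, and 4, 2, and 4 MΦ samples. Since the controls carry all the transgenes, they do not show islets without them.

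Collagens are trimers of chains wound into a triple helix and are found outside or at the surface of the cell. Each gene encodes a single kind of chain. Fibrillar chains such as types I, III, and V make the fibers of connective tissue, the fibril-associated chains coat those fibers, and type VI chains form beaded filaments around cells. Types XV and XVIII are proteoglycans of the basement membrane zone of vessels, while types XIII, XVII, XXIII, and XXV are anchored in the plasma membrane and can be shed. In the islet, ECs and pericytes lie in a capillary network surrounded by matrix, and fibroblasts and pericytes are the best known sources of fibrillar collagen in most tissues.

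Values are scores, the authors' normalized expression values, rounded to whole numbers. A score is not corrected for gene length, so genes were compared with each other only as score per kilobase (kb) of exon. Changes were tested with limma on log2(score + 1), and a gene was called when it changed at least 2-fold with a Benjamini-Hochberg adjusted p under 0.05 over all genes tested in that comparison. The depth of a library cannot be read from scores, and each p-value measures only the spread between samples that pool several mice.

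Markers of the sorted type were high in each group, with summed scores over 8 EC markers of 393853 to 636672 in EC libraries and of 1503 to 55274 in β cell libraries. β cell libraries differed in what else they held. The summed score of 10 stromal and pericyte markers, including Pdgfrb, Rgs5, and Dcn, was 883 and 1051 in No Dox β cell replicates 1 and 2 but 119800 and 449752 in replicates 3 and 4. The 1wk Dox libraries had 71846 to 386622, and the 1wk WD libraries 218365, 210938, and 18404. None of these markers was at 1 in every sample of a group. The 8 β cell markers ran the other way, with sums of 8666377 and 5559878 in No Dox replicates 1 and 2 and of 1657731 and 636340 in replicates 3 and 4. In bulk samples of this kind, fewer cells of a type and less RNA per cell cannot be told apart.

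The sorted cell types had different collagens. A mean score of 20 or more was reached by 32, 32, and 34 of the 37 collagens in β cell groups, in the order No Dox, 1wk Dox, and 1wk WD. EC groups had 26, 27, and 28, and MΦ groups had 24, 26, and 25. Collagens with a mean score of at least 1000 numbered 15 to 18 in β cell groups and 3 or 4 in each EC and MΦ group. These counts are of group means and do not hold in each library. Of the No Dox β cell libraries low in stromal markers, replicate 1 had only Col6a6 and Col20a1 at 1000 or more, and replicate 2 only Col6a6. The 21 genes that reached 1000 in some group or were called in a time comparison are given by sample where results turn on them. The other 16 genes had no sample above 1232, which was Col23a1 in a 1wk WD β cell sample. Col9a1 was above 1 in a single β cell library and a single EC library, at 23 and 2. Reads of overlapping genes cannot be separated where the counting strand is not known, and this touches the exons of 7 members, among them Col1a1, Col10a1, and Col15a1.

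**Figure D1:**
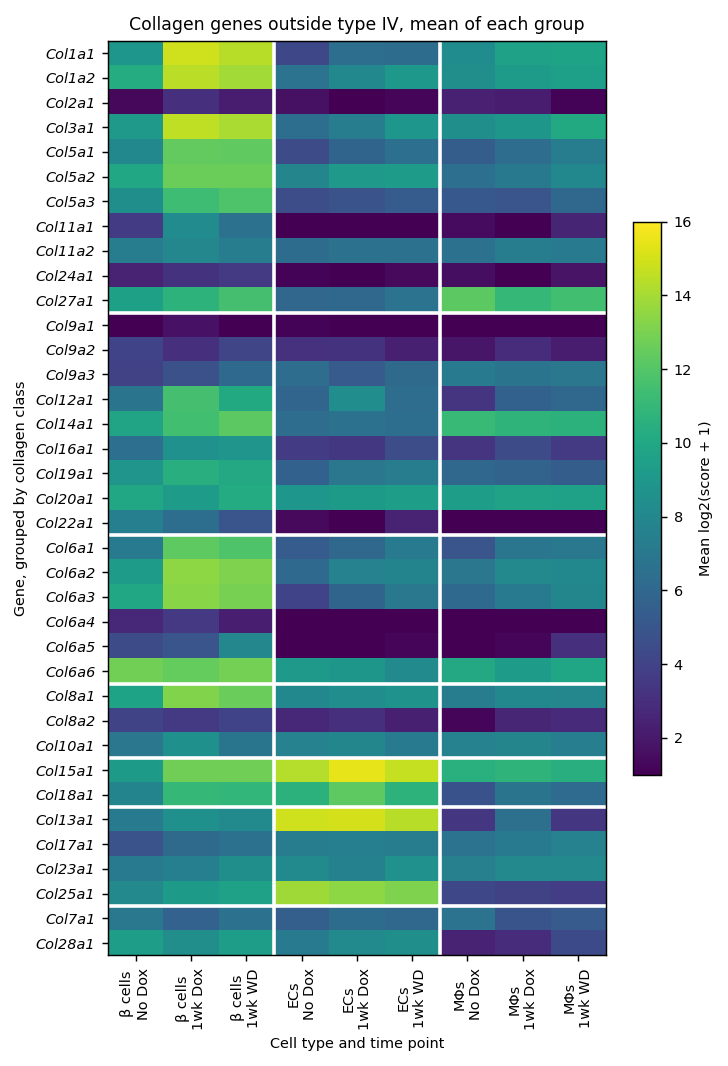
Mean log2(score + 1) of the 37 collagen genes outside type IV in the 9 groups, with genes in rows by collagen class and groups in columns, and color for the level. Col13a1, Col25a1, and Col15a1 stand out in ECs at each time point, and fibrillar and type VI genes in β cell libraries of both later groups. Col27a1 and Col14a1 are among the highest collagens of MΦs, but Col14a1 is higher in β cell libraries of both later groups, with means of 11.45 and 12.20 against 10.73 and 10.63 in MΦs.

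**Figure D2:**
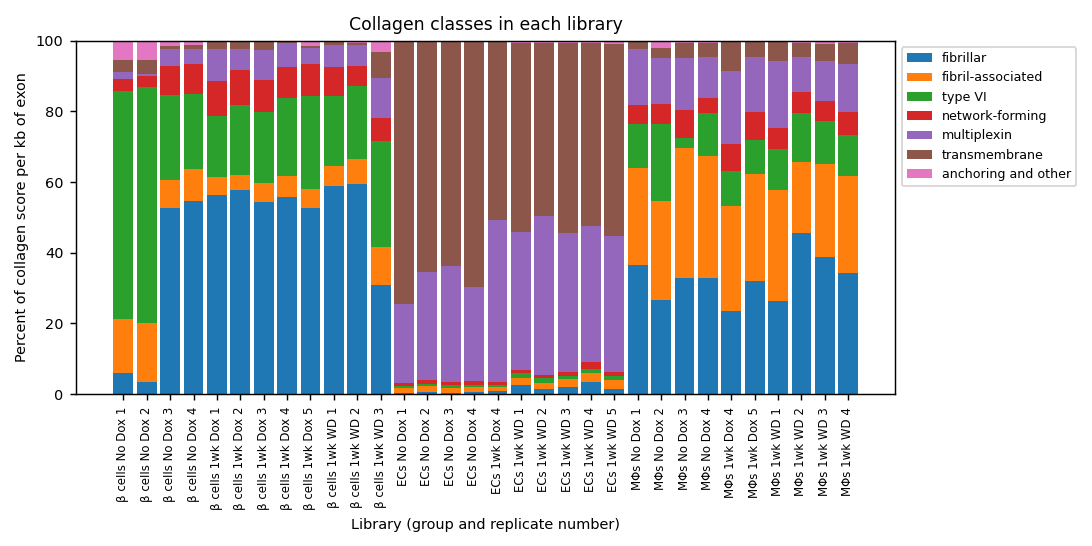
Share of each collagen class in the summed collagen score per kb of exon, in percent, with a bar for each of the 32 libraries. Transmembrane chains and multiplexins fill the EC bars, and type VI chains make up 64.4% and 66.8% of No Dox β cell replicates 1 and 2 where fibrillar chains make up 52.6% and 54.8% of replicates 3 and 4.

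EC collagen outside type IV was mostly that of 3 genes. Col13a1 encodes a transmembrane collagen of cell adhesion sites and of the neuromuscular junction (chr10:61300984-61441856 in mm9, minus strand). Col25a1, a transmembrane collagen first known from amyloid plaques, lies at chr3:129883809-130302795 on the plus strand. Col15a1, the type XV proteoglycan of capillary basement membrane zones, lies at chr4:47221033-47326039 on the plus strand. These genes together took 87.6% to 94.4% of the collagen score per kb in each EC library, and Col13a1 led in 9 of the 10. The exception was 1wk WD replicate 2, where Col15a1 held 42.6% and Col13a1 39.4%.

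The promoters of these genes are shown because they carry nearly all of the EC score of collagens outside type IV. Each sequence is the 150 bases before the RefSeq start in GRCm38.p6, read 5′ to 3′ in the direction of the gene, and capitals mark matches on either strand to a TATA box (the letters TATAAA), a box spelled CCAAT, a GC box (the letters GGGCGG), or an ETS core (the letters GGAAGT).
Col13a1, chr10:61979109-61979258, minus strand: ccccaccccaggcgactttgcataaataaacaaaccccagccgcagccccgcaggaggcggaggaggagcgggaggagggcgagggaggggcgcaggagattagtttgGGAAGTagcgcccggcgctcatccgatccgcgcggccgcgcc
Col25a1, chr3:130180695-130180844, plus strand: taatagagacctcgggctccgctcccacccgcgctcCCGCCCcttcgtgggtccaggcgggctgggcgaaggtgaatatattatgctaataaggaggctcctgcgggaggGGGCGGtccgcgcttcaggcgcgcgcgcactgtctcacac
Col15a1, chr4:47207862-47208011, plus strand: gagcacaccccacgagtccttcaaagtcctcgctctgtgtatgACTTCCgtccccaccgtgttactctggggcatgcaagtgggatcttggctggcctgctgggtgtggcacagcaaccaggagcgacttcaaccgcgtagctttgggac

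The ETS core, the short sequence read by the ETS family of endothelial and other transcription factors, was found in the Col13a1 and Col15a1 windows and not in that of Col25a1, which held 2 GC boxes. It occurs in 13.6% of the 32851 promoter windows of this length and in 5 of the 33 windows that match 30 of the collagen genes. GC boxes were in 28.6% of all windows and in 16 of the 33. A match of this kind describes letters and does not show a bound site. The bases after the RefSeq start were found in a protein-coding GENCODE transcript for Col13a1 but not for Col25a1 and Col15a1.

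At No Dox the Col13a1 score was 37245, 27788, 26746, and 33997 in ECs. It was 177, 157, 156, and 80 in β cells and 9, 13, 9, and 7 in MΦs, so the types did not overlap. The log2 difference was 7.82 (SE 0.29, limma adjusted p = 1.09e-08) against β cells and 11.56 (SE 0.29, adjusted p = 1.91e-10) against MΦs. Col25a1 behaved alike, at 23349, 12175, 11296, and 14854 in ECs, 97, 193, 214, and 1226 in β cells, and 10, 28, 28, and 14 in MΦs. Its log2 differences were 5.80 (SE 0.65, adjusted p = 2.24e-05) and 9.58 (SE 0.65, adjusted p = 2.85e-07).

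Col15a1 was more widely present. No Dox ECs had 19404, 20409, 22036, and 20323, and MΦs had 2116, 1490, 1263, and 1253. β cells had 207 and 34 in the libraries low in stromal markers and 2665 and 5920 in the other two. The EC difference was 5.14 against β cells (SE 1.23, adjusted p = 0.00465) and 3.78 against MΦs (SE 1.23, adjusted p = 0.0265). The second call was lost when any of 7 of the 8 EC and MΦ libraries was left out, with adjusted p up to 0.0579, and the spread in that fit is shared with the β cell libraries. Col18a1, the other multiplexin, whose C-terminal fragment is endostatin, was at 1302, 1930, 1397, and 1898 in ECs against 18, 69, 61, and 6 in MΦs (log2 difference 5.87, SE 1.22, adjusted p = 0.00195).

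Across the whole set at No Dox, 11 of 32 collagens tested were called between ECs and β cells, 4 higher and 7 lower in ECs, where 37.7% of all genes were called, 16.5% higher and 21.2% lower. Between ECs and MΦs 7 of 32 were called, 5 higher in ECs, against 33.5% of genes, with 15.9% higher. Between β cells and MΦs 11 of 32 were called, 9 higher in β cells, against 43.2% of genes, with 23.5% higher. With all libraries fitted, these shares are near or below those of genes in general. Without the 2 No Dox β cell libraries high in stromal markers, 15 of 28 collagens were called between ECs and β cells, 10 of them higher in ECs. Without the 2 low ones, 25 of 33 were called and 22 of these were lower in ECs, against 45.4% and 37.8% of genes. Between β cells and MΦs, 14 of 28 were called without the 2 high ones, 6 higher and 8 lower in β cells. Without the 2 low ones 26 of 33 were called there, all higher in β cells. The shares of all genes for these last counts are not given here.

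At 1wk WD the 3 EC genes stood apart in the same way. Col13a1 was 23711, 20603, 20616, 21569, and 21202 in ECs, with a log2 difference of 6.22 from β cells (SE 0.82, adjusted p = 3.20e-05) and of 11.00 from MΦs (SE 0.76, adjusted p = 3.56e-08). Col25a1 differed by 3.54 from β cells (SE 0.34, adjusted p = 1.98e-06), and Col15a1 by 1.92 (SE 0.42, adjusted p = 0.00170). Among 34 collagens tested, 21 were called between ECs and β cells, 18 of them lower in ECs, with Col1a1 lower by 8.06 on the log2 scale (log2 difference -8.06, SE 0.85, adjusted p = 4.30e-06). The share of all genes called there was 39.9%, with 25.2% lower. Between β cells and MΦs 23 of 34 were called, all higher in β cells, against 46.2% of genes with 27.0% higher, and between ECs and MΦs 10 of 34, against 40.3%. Stromal marker sums were 218365, 210938, and 18404 in these β cell libraries, 2134 to 8422 in the MΦs, and 16226 to 68904 in the ECs, and their part in the β cell differences was not tested.

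The comparison of 1wk WD with No Dox in ECs addresses whether the EC profile still differs from baseline after VEGF-A has been withdrawn. In this comparison 7 collagens rose, and none fell by the 2-fold rule. They were the fibrillar chains Col1a1, Col1a2, Col3a1, and Col5a2, the type VI chains Col6a1 and Col6a3, and Col28a1, a collagen known from the surroundings of Schwann cells. This was 7 of 28 collagens tested, and 250 of 14167 genes were called, which is 1.76%, with 1.28% higher. The median log2 change was 0.61 over the collagens and 0.00 over all genes, and 22 of the 28 were higher.

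Col6a3, the long chain of the common type VI filament, had the largest log2 change among the collagens tested. Its score was 15, 18, 14, and 14 at No Dox and 149, 80, 137, 293, and 72 at 1wk WD, with no overlap (log2 change 2.998, SE 0.42, adjusted p = 0.00364). Col3a1, the type III chain, went from 55, 104, 65, and 131 to 716, 332, 349, 1060, and 273 (2.49, SE 0.40, adjusted p = 0.00817). Col1a2 was 78, 139, 56, and 183 and then 795, 382, 413, 971, and 298 (2.31, SE 0.40, adjusted p = 0.0115). Each of these genes was highest in 1wk WD replicate 4 and second highest in replicate 1.

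Col6a1, which pairs with Col6a2 and Col6a3 in the same trimer, rose from 52, 40, 35, and 39 to 201, 120, 128, 177, and 101 (1.75, SE 0.29, adjusted p = 0.00908). Col1a1, the main chain of type I collagen, had 12, 33, 25, and 10 against 65, 55, 63, 201, and 64 (2.07, SE 0.49, adjusted p = 0.0363). Col5a2, a type V chain that sits in type I fibrils, had 160, 305, 162, and 337 against 693, 448, 810, 1039, and 379 (1.47, SE 0.32, adjusted p = 0.0269). In all of them the lowest 1wk WD sample lay above the highest No Dox sample. Col28a1 had 151, 201, 98, and 177 against 285, 335, 307, 410, and 448 (1.21, SE 0.24, adjusted p = 0.0191), also without overlap.

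Other chains of the same fibers were higher but not called. Col5a1 had a log2 change of 1.98 (SE 0.55, adjusted p = 0.0651), and Col6a2 of 1.63 (SE 0.55, adjusted p = 0.122). In all, 9 of the 28 collagens had every 1wk WD sample above every No Dox sample, against 5.75% of genes, and 1 had every sample below, against 4.91%. The 2 of the 9 that were not called were Col15a1 and Col20a1.

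The stromal and pericyte markers were also higher in most 1wk WD EC libraries. Their summed score was 5576 to 12472 at No Dox and 16226 to 68904 at 1wk WD, without overlap, and no marker was at 1 in all samples of either group. Most of this sum is Rgs5, and the mean log2(score + 1) of the 10 markers overlapped, since 1wk WD replicate 3 had 6.28 and the No Dox samples 5.93 to 6.72. The markers were mixed in that library, with Rgs5 at 14734, Des at 176, and Lum at 15 above their No Dox ranges and Pdgfrb at 636, Acta2 at 149, and Dcn at 4 within or below theirs. It also had the highest sum of mesothelial markers among the EC libraries, at 90 against 4 to 9 at No Dox. Rgs5, a pericyte gene, rose with a log2 change of 2.01 (SE 0.41, adjusted p = 0.0206), while Pdgfrb, the pericyte PDGF receptor, had 1.76 (SE 0.49, adjusted p = 0.0645). Replicates 1 and 4 at 1wk WD had the highest marker sums, 47875 and 68904. Without these 2 libraries 5 collagens were still called, against 1.34% of genes, and Col1a1 (adjusted p = 0.109) and Col5a2 (adjusted p = 0.0876) were not. The number called was 4 without No Dox replicate 1 and 4 without No Dox replicate 3. Col3a1 kept its call under all 17 alternatives, and Col6a3 and Col6a1 under the 16 in which they were tested, since their means fall short of the minimum of 200, whereas Col1a1 lost its call in 11 of 16, including the removal of any of 7 single libraries, Col5a2 in 6 of 17, Col28a1 in 3 of 17, and Col1a2 in 1 of 17. Acinar markers moved the other way, also without overlap, with sums of 89558, 1552693, 77565, and 57668 at No Dox and of 55323, 658, 1057, 1020, and 1006 at 1wk WD. What either set of markers contributes to the collagen values was not tested. The levels themselves were low beside the EC genes, since Col3a1 had a mean of 65.1 score per kb at 1wk WD where Col13a1 had 4669.

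The leading EC genes changed by less than 2-fold. Col13a1 was lower in every 1wk WD sample than in any No Dox sample, with a log2 change of -0.53 (SE 0.11, adjusted p = 0.0222), which is under 2-fold. Col15a1 was higher in every sample, at 28119, 30671, 23888, 26363, and 22868 (log2 change 0.35, SE 0.10, adjusted p = 0.0778). Col25a1 had 11441, 8857, 7949, 10319, and 6393, which overlaps No Dox by a single library (-0.75, SE 0.21, adjusted p = 0.0719). Col18a1 had 1900, 1760, 1468, 1629, and 1462 and differed from No Dox by 0.03 (SE 0.15, adjusted p = 0.937), with a sign that changed when some libraries were left out. The summed EC markers were also lower at 1wk WD, at 393853 to 463753 against 535884 to 568394.

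The ratio of Col15a1 to Col13a1 within a library does not depend on how libraries were scaled. It was 0.521, 0.734, 0.824, and 0.598 at No Dox, 1.33 in the 1wk Dox sample, and 1.19, 1.49, 1.16, 1.22, and 1.08 at 1wk WD. All 6 later samples lay above all 4 No Dox samples, and this ratio was chosen after the scores had been seen and was not tested. For Col25a1 to Col13a1 the groups overlapped, at 0.422 to 0.627 at No Dox and 0.302 to 0.483 at 1wk WD.

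**Figure D3:**
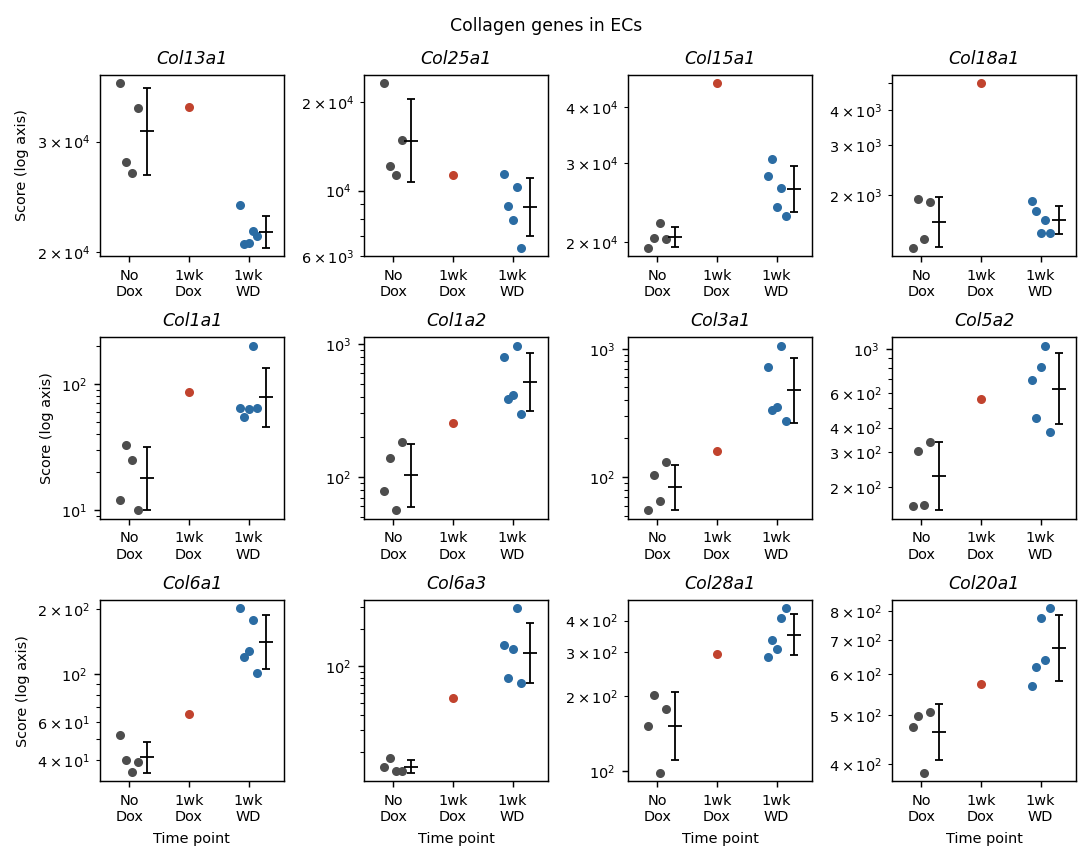
Scores of 12 collagen genes in ECs on log axes, with a point for each sample at No Dox (n = 4), 1wk Dox (n = 1), and 1wk WD (n = 5), and bars for the mean and SD of log2(score + 1). Col13a1 is lower and Col15a1 higher in every 1wk WD sample than at No Dox, the fibrillar and type VI genes are higher, and the single 1wk Dox sample is above all others for Col15a1 and Col18a1.

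ECs had 1 sample at 1wk Dox, so its values carry no test and no replicate check. It had 45432 for Col15a1 against a No Dox mean of 20543, and 5009 for Col18a1 against 1632, the highest values of both multiplexins in any EC sample. Col13a1 at 34036 and Col25a1 at 11319 lay within the No Dox range. Of 27 collagens, 10 were more than 2-fold above the No Dox mean and 1, Col9a3, below it, where 10.7% of genes were past 2-fold, 5.43% above and 5.27% below. The 10 also included Col12a1, a fibril-associated chain of stressed connective tissue, at 323 against a highest No Dox value of 77, and the type I and type VI chains Col1a1, Col1a2, Col6a2, and Col6a3. The stromal marker sum was 14136 in this library. Its column label also has a number in a series apart from that of the other EC libraries, which cannot be told apart from 1wk Dox.

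In β cell libraries many fibrillar and type VI chains had high scores, and the leading ones were low in the libraries lowest in stromal markers. Col1a1 (chr11:94797538-94814356 in mm9) was at 23, 4, 13278, and 33390 in the No Dox replicates in order. The 1wk Dox libraries had 47507, 27287, 38867, 34878, and 15851, and the 1wk WD libraries 61584, 51511, and 2958. The low values are those of the libraries with the lowest stromal sums, and the groups overlapped.

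Col3a1 (chr1:45368383-45406551) had 38, 4, 13164, and 35231, then 40443, 27600, 26556, 26209, and 11467, and then 54348, 42796, and 2420. No Dox Pdgfrb scores were 80, 66, 13692, and 49477. With 1wk Dox they were 29295, 10492, 20841, 34404, and 6919, and after withdrawal 48280, 40295, and 3980. Col6a3 was at 200, 89, 4447, and 11729 at No Dox, with 15596, 8438, 13114, 12772, and 5622 at 1wk Dox, and with 22944, 16263, and 1314 after withdrawal. Within 1wk Dox, Pdgfrb was highest in replicate 4 and Col1a1, Col3a1, and Col6a3 in replicate 1. The summed stromal markers were highest in replicate 1, at 386622 against 371517 in replicate 4. Their mean log2(score + 1) was highest in replicate 4, at 12.77 against 12.58 in replicate 1. The ratio of Col1a1 to Pdgfrb was 1.01 to 2.601 over the 1wk Dox β cell libraries, and in ECs it was 0.00829 to 0.0534 at No Dox and 0.0140 to 0.0991 at 1wk WD. All 1wk Dox β cell libraries thus had a higher ratio than any EC library of these 2 groups, while the No Dox β cell libraries, at 0.0606 to 0.970, overlapped the ECs.

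The promoters of Col1a2 (chr6:4454814-4491543 in mm9) and Col3a1 are shown as those of the fiber chains that carry this pattern, in the format used above.
Col1a2, chr6:4505468-4505617, plus strand: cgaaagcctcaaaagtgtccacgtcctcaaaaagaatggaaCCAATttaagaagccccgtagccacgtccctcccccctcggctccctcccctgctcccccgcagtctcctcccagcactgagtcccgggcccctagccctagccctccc
Col3a1, chr1:45311388-45311537, plus strand: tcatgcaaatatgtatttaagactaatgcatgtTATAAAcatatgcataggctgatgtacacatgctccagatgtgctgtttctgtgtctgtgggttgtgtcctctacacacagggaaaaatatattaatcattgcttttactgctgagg

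A CCAAT box was found in the Col1a2 window and a TATA box in the Col3a1 window, and neither held an ETS core or a GC box. CCAAT boxes are in 24.5% of all windows and in 6 of the 33 collagen windows, and TATA boxes in 7.57% and in 4 of the 33. The Col3a1 window had 37.3% G and C, against a median of 54% over all windows.

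No collagen was called in β cells between time points. At 1wk Dox against No Dox 0 of 34 were called by limma, where 0.0122% of genes were, and 13 of the 34 passed 2-fold at an unadjusted p under 0.05, where 4.04% of genes did. The median log2 change was 1.63 over the collagens and 0.03 over all genes tested. Col1a1 had a log2 change of 6.004 with an SE of 2.29 (adjusted p = 0.650), Col3a1 of 5.48 (SE 2.26, adjusted p = 0.677), and Col15a1 of 3.58 (SE 1.27, adjusted p = 0.616). At 1wk WD 0 of 34 were called, where 0.0% of genes were, and 2 of the 34 passed the unadjusted rule, against 4.45% of genes. The median change was 2.23 over the collagens and 0.06 over all genes, and Col1a1 had 5.46 (SE 2.61, adjusted p = 0.610). Between 1wk WD and 1wk Dox the count was 0 of 34, against 0.0% of genes, and 1 of the 34 passed the unadjusted rule, against 2.88% of genes.

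These results rest on which No Dox libraries are taken as the baseline. Without replicates 3 and 4, which were high in stromal markers, 18 of 34 collagens rose with 1wk Dox and 20 of 34 in the withdrawal group, against 7.36% and 8.74% of genes. Without replicates 1 and 2 the counts were 0 and 0, against 0.487% and 0.0853% of genes, and the median changes of the collagens were -0.03 and -0.05. Acinar markers also differed between these libraries, with sums of 637494, 28178, 10878086, and 8232909 in the 4 No Dox replicates and 205 to 18757 at 1wk Dox. Time point and the content of other cells cannot be told apart for these genes.

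**Figure D4:**
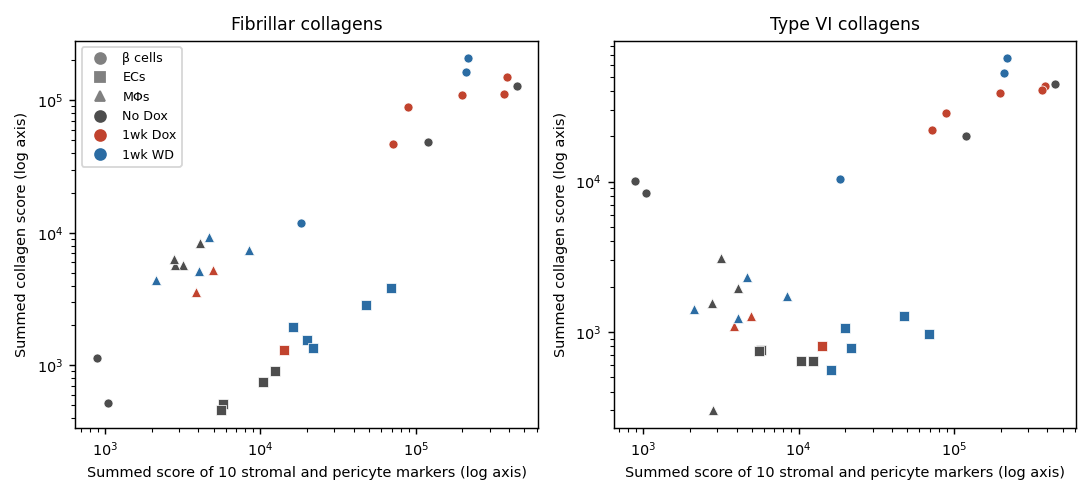
Summed score of the fibrillar collagens (left) and of the type VI collagens (right) against the summed score of 10 stromal and pericyte markers in each of the 32 libraries, on log axes, with shapes for cell types and colors for time points. No Dox β cell replicates 1 and 2 have marker sums of 883 and 1051. Their fibrillar sums are 1144 and 519 and their type VI sums 10027 and 8450. Replicate 3 has a marker sum of 119800, within the range of the 1wk Dox and 1wk WD β cell libraries. Replicate 4 has 449752, above that range.

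Some collagens did not follow the stromal markers in β cell libraries. Col6a6 (chr9:105591747-105730415, minus strand), a chain that can take the place of Col6a3 in type VI trimers, was at 9715, 8337, 5397, and 6202 at No Dox. The 1wk Dox libraries had 4185, 7857, 7493, 2896, and 8382, and the 1wk WD libraries 8149, 7695, and 6906. The No Dox values were highest where stromal markers were lowest, and there Col6a6 made up 62.9% and 66.2% of the collagen score per kb. It led the collagens again in 1wk WD replicate 3, with 20.5%, which was the 1wk WD library lowest in stromal markers.

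The change of Col6a6 was -0.34 at 1wk Dox (SE 0.32, adjusted p = 0.853). Against other types at No Dox it was higher in β cells, by 3.69 over ECs (EC minus β cell log2 difference -3.69, SE 0.57, adjusted p = 2.33e-04) and by 2.77 over MΦs (SE 0.57, adjusted p = 0.00149). ECs had 473 to 656 and MΦs 241 to 2726, and neither overlapped the β cell range. At 1wk WD the difference from MΦs was 3.03 (SE 0.60, adjusted p = 7.56e-04).

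Col20a1, a fibril-associated chain of little-known function, was second in these libraries, with 11.6% and 10.6% of the score per kb in No Dox replicates 1 and 2. Its No Dox score was 1004, 746, 849, and 1553. After 1wk Dox it was 542, 906, 647, 545, and 546, with 1009, 1801, and 932 after withdrawal. The change at 1wk Dox was -0.68 (SE 0.28, adjusted p = 0.677). Col28a1 came next, with 537, 443, 553, and 1608 at No Dox against 2, 67, 1, and 1 in MΦs (log2 difference 6.99, SE 0.99, adjusted p = 1.06e-04). Col22a1, a chain of the muscle-tendon junction, was at 270, 399, 119, and 74 in No Dox β cells, at 3 or less in No Dox ECs, and at the lowest score in every MΦ library.

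Within the later groups, Col13a1 in β cell libraries was highest where EC markers were highest. It was at 2499, 1144, and 1841 in 1wk Dox replicates 1 to 3, where the EC marker sums were 55274, 18652, and 26767. In replicates 4 and 5 it was at 88 and 15, with EC sums of 6447 and 1503. At 1wk WD it was 112, 219, and 975, with EC sums of 4319, 6552, and 16711. The No Dox libraries did not show this order, with Col13a1 at 177, 157, 156, and 80 beside EC sums of 2243, 1636, 4376, and 7404. The part of EC RNA in these values was not tested.

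Col10a1 and Col11a1 were the only 2 of the 34 collagens tested that were above No Dox in every 1wk Dox β cell sample, where 1.08% of genes were. They belong to the 16 lower genes and were picked out after their values were seen, as were Col22a1 and Col9a3. Col10a1, a network-forming chain of growth plate cartilage, had 168, 85, 127, and 121 at No Dox and 501, 238, 335, 445, and 383 at 1wk Dox (log2 change 1.59, SE 0.40, adjusted p = 0.330). At 1wk WD it was back at 180, 59, and 137. Its exons overlap those of Nt5dc1 on the opposite strand, so its score may hold reads of that gene. Col11a1, a minor fibrillar chain, had 1, 1, 38, and 169 and then 375, 257, 228, 310, and 357 (4.56, SE 1.30, adjusted p = 0.450).

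MΦs had few collagens at high scores. Per kb, Col27a1, a fibrillar chain best known from cartilage, led in No Dox replicates 1 and 3 with 19.8% and 28.4%, Col14a1 in replicate 4 with 23.1%, and Col6a6 in replicate 2 with 19.1%. Col27a1 lies at chr4:62875038-62996025 on the plus strand in mm9, and its promoter is shown because it is the only collagen called between time points in MΦs, with the marks used above.
Col27a1, chr4:63215262-63215411, plus strand: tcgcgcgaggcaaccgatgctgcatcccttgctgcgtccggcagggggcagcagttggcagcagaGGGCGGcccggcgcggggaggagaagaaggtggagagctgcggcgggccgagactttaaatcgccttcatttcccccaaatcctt

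This window held 1 GC box and none of the other motifs. The bases after its RefSeq start were not found in a protein-coding GENCODE transcript of the gene. At No Dox the Col27a1 score in MΦs was 5472, 3869, 5213, and 4884. It was 62, 69, 38, and 79 in ECs (log2 difference of ECs from MΦs -6.31, SE 0.96, adjusted p = 2.04e-04). β cells had 373, 82, 1932, and 4953, which overlaps the MΦ range at its upper end (β cell minus MΦ difference -2.71, SE 0.96, adjusted p = 0.0319). That last call was lost when the 2 β cell libraries low in stromal markers were left out, with a difference of -0.64 (adjusted p = 0.175), and when any of 5 single libraries was left out, with adjusted p up to 0.0813. Col14a1, a fibril-associated chain also called undulin, was at 2759, 1873, 1791, and 2726 in MΦs and at 58 to 106 in ECs (difference -4.77, SE 1.16, adjusted p = 0.00537).

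Col27a1 fell in MΦs at 1wk Dox. Both samples, at 1853 and 2233, were below all 4 No Dox samples, as for 14.7% of genes, with a log2 change of -1.24 (SE 0.18, adjusted p = 0.00552). It was the only 1 of 28 collagens called, against 2.26% of genes, with 0.653% lower. At 1wk WD it was 2526, 2748, 3380, and 2530, again below every No Dox sample, as for 4.27% of genes, with a change of -0.80 (SE 0.15, adjusted p = 0.0263) that is under 2-fold. The 1wk Dox call was lost without 1wk Dox replicate 4, which leaves a lone sample whose spread is assumed to be like that of the other groups (-1.11, adjusted p = 0.264), and with the replicate number as a block (-1.32, adjusted p = 0.161). Without the 2 No Dox libraries highest in acinar markers the change was -1.39 (adjusted p = 0.00445), and Col27a1 was 1 of 27 collagens called, against 6.41% of genes. The 8 MΦ markers summed to 320417 to 380074 in No Dox libraries, 501688 and 419008 with 1wk Dox, and 426118 to 518290 after withdrawal, but single markers moved in different directions. Itgam, which encodes the CD11b used for sorting, was at 38275, 29382, 45478, and 32274 in No Dox samples and lower, at 21379 and 22708, in both 1wk Dox samples (log2 change -0.70, SE 0.20, adjusted p = 0.0706). After withdrawal Itgam was at 29800, 21281, 20309, and 20945, while Mrc1, another macrophage marker, was higher in every later sample than in any No Dox sample. The part of such shifts in the Col27a1 values was not tested. In the column labels of the scores, both 1wk Dox MΦ libraries have numbers in a series apart from that of all other MΦ libraries. What this series stands for is not given, and it cannot be told apart from 1wk Dox here.

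With 1wk Dox Col14a1 was at 1466 and 1961, and after withdrawal at 1883, 1424, 1689, and 1396. Its changes were -0.40 (SE 0.22, adjusted p = 0.333) and -0.50 (SE 0.18, adjusted p = 0.186). Col15a1 in MΦs was at 1883 and 1578 with 1wk Dox and then at 1888, 1246, 1251, and 1211 (change -0.12 at 1wk WD, SE 0.20, adjusted p = 0.787). The groups of both genes overlapped.

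At 1wk WD 0 of 28 collagens were called in MΦs by limma, against 0.626% of genes, and 7 of the 28 passed 2-fold at an unadjusted p under 0.05, where 4.97% of genes did. Col12a1 was at 29, 9, 9, and 2 in No Dox samples, 42 and 60 with 1wk Dox, and 51, 101, 95, and 36 after withdrawal, so that all treated samples were above all untreated ones, as for 16.2% and 4.98% of genes in the respective comparisons. Its changes were 2.39 (SE 0.89, adjusted p = 0.142) and 2.76 (SE 0.73, adjusted p = 0.0838). Col3a1 had 1034, 453, 129, and 246 at No Dox and 558, 2331, 1322, and 828 after withdrawal (1.64, SE 0.56, adjusted p = 0.157), and Col1a1 had 816, 285, 86, and 457 and then 368, 1749, 1092, and 728 (1.45, SE 0.61, adjusted p = 0.253). Stromal marker sums in MΦs were 2790 to 4087 at No Dox and 2134 to 8422 at 1wk WD. Between 1wk WD and 1wk Dox 0 of 28 were called, against 0.0866% of genes, with 1 passing the unadjusted rule, against 1.82%.

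**Figure D5:**
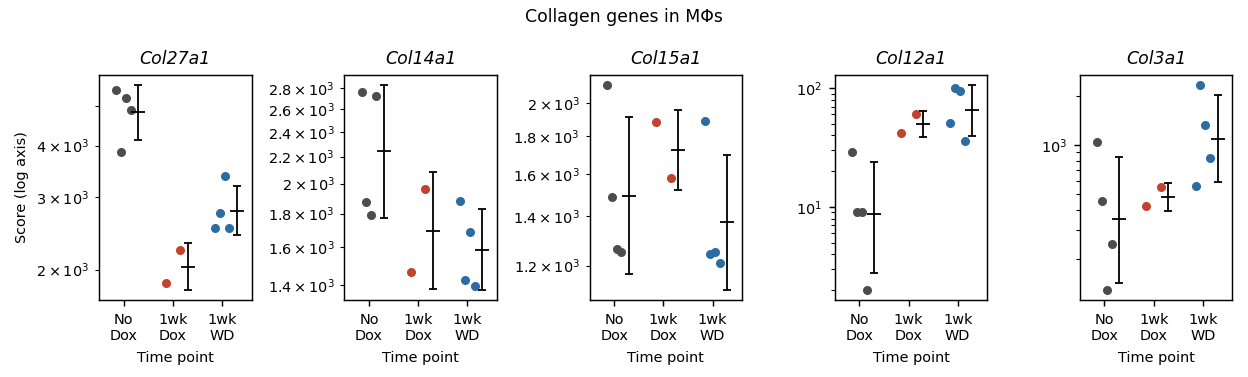
Scores of Col27a1, Col14a1, Col15a1, Col12a1, and Col3a1 in MΦs on log axes, with a point for each sample at No Dox (n = 4), 1wk Dox (n = 2), and 1wk WD (n = 4), and bars for the mean and SD of log2(score + 1). Every 1wk Dox and 1wk WD sample is below every No Dox sample for Col27a1 and above for Col12a1, and for the other 3 genes the later groups overlap No Dox.

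The responses to withdrawal were also compared between cell types by an interaction term. None of 28 collagens differed between ECs and MΦs by the same rule, against 1.4% of genes, with 4 past 2-fold at an unadjusted p under 0.05, against 9.04%. None of 34 differed between ECs and β cells or between MΦs and β cells, against 0.0913% and 0.0% of genes, with 5 and 0 past the unadjusted rule, against 7.31% and 4.32%. For Col6a3 the EC response exceeded that of MΦs by 1.24 (SE 0.84, adjusted p = 0.405), and for Col27a1 by 1.60 (SE 0.54, adjusted p = 0.111). The rise of fiber collagens in ECs is therefore not shown to differ from their changes in MΦs.

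Genes that modify, process, bind, or degrade collagen were counted from lists of 4 kinds. In ECs at 1wk WD 1 of 15 tested genes of chain modification and folding rose, which was Leprel1, a prolyl 3-hydroxylase, where 1.76% of all genes were called. Its log2 change was 2.48 (SE 0.36, adjusted p = 0.00441), from 112 to 268 at No Dox to 536 to 2107. Among 8 collagen receptors and uptake genes the 1 called was Ddr2, a receptor for fibrillar collagen, with 1.90 (SE 0.33, adjusted p = 0.0114). Among 4 degradation genes it was Mmp2, a gelatinase, with 2.38 (SE 0.45, adjusted p = 0.0157), from 10 to 14 at No Dox to 37 to 126. None of 10 processing and cross-linking genes was called by limma in ECs. The stromal marker sums of the same EC libraries were also higher at 1wk WD, as given above. In No Dox β cell libraries, Ddr2 was at 46 and 26 in the pair low in stromal markers and at 2134 and 6196 in the other pair. Mmp2 was at 1 and 31 against 983 and 2612, and Leprel1 at 207 and 440 against 1681 and 4878. The part of stromal RNA in the EC values of these genes was not tested. Leprel1 kept its call under all 17 alternatives, Ddr2 under 16 of 17, and Mmp2 under 14 of 16.

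In MΦs the collagenase Mmp13 rose at both time points, with No Dox scores of 3611 to 5226, 1wk Dox scores of 19661 and 14086 (log2 change 2.03, SE 0.20, adjusted p = 9.88e-04), and scores after withdrawal of 6624 to 9908 (1.00, SE 0.17, adjusted p = 0.0178). The first call was lost in 2 of 14 alternatives, and the second, which lies at the 2-fold limit, in 11 of 16. Glt25d2, which adds galactose to collagen hydroxylysine, rose by 2.18 (SE 0.44, adjusted p = 0.0187) and by 1.69 (SE 0.36, adjusted p = 0.0428), and was lost in 5 of 14 and 11 of 16 alternatives. These were the only genes called among 7 degradation, 15 modification, 10 receptor, and 11 processing genes tested in MΦs, where 2.26% and 0.626% of all genes were called at the respective time points. In β cells none of the 5 degradation, 15 modification, 13 processing, and 10 receptor genes tested was called by limma at either time point. At an unadjusted p under 0.05 and 2-fold, 1 gene of each list passed there at 1wk Dox, where 4.04% of all genes did. At 1wk WD 2 degradation, 0 modification, 1 processing, and 2 receptor genes passed, where 4.45% of all genes did.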

How the data were processed

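RNA from sorted islet cells was amplified, sequenced as paired reads, and aligned by the authors to mm9 with TopHat 2.0. The deposited score is the authors' TMM-normalized expression, rounded to whole numbers with a lowest value of 1, and whether counting used strand is not given in the sources used here. Amplification and the rounding limit the precision of low scores, and depth is unknown. Summed scores were 23465985 to 53441769 over 32 samples (median 32988124). The column labels of both 1wk Dox MΦ samples, the 1wk Dox EC sample, and β cell 1wk WD replicate 3 have numbers in a separate series. The 6 columns of other samples were not used.

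Analysis used Python 3.11.15 (pandas 2.3.3, matplotlib 3.10.9) and R 4.3.3. Genes whose mean score reached 20 in a fitted group were tested with limma 3.58.1 (lmFit, eBayes with a variance trend) on log2(score + 1), so fold changes of low genes are understated. β cell and MΦ time points were fitted with 3 groups, ECs with 2, cell types with 3 at each time point, and withdrawal responses with an interaction term. The code was tested on simulated data. Per-sample values were given, where results turn on them, for collagens whose mean score reached 1000 in a group or that were called between time points. Among these, Col5a1, Col5a3, Col6a2, Col8a1, and Col19a1 were not given by sample. Genes of the other lists were named where called between time points, and their calls between cell types and in the interaction are not given. Members and lists were chosen with earlier results of these data known. Alternatives were another pseudocount, filter, scaling, and variance model, only the groups compared, a replicate block, and leaving out each sample. Leaving out libraries high or low in stromal or acinar markers was added after the data were seen.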

Additional observations from a re-analysis of the deposited data

Results flagged for a closer look

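Among 120 sets of samples of 1 collagen gene in 1 group, 4 held a sample far from the others by Dixon's criterion, where chance gives about 1 in 20. Col1a1 in ECs at 1wk WD was 201 in replicate 4 and 55 to 65 in the other samples, and that library also had the highest stromal marker sum of the EC libraries. Col13a1 in No Dox β cells was 80 in replicate 4 and 156 to 177 in the others. Col15a1 in MΦs at 1wk WD was 1888 in replicate 1 and 1211 to 1251 in the others. Col1a2 in No Dox MΦs was 186 in replicate 3 and 386 to 442 in the others.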

How the results depend on the processing

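Of the recomputed counts 247 stayed within 1.5 times of the reported one and 22 did not. Numbers of collagens called between time points were as follows. At 1wk WD in ECs (7 called) 4 were called with a minimum mean score of 200, 3 with no variance trend, and 4 to 7 when single libraries were left out. In MΦs at 1wk Dox (1 called) it was 2 with a pseudocount of 20 and 0 to 2 with single libraries left out, the 0 being without 1wk Dox replicate 4 and the 2 without No Dox replicate 3. At 1wk WD in MΦs (0 called) it was 1 with no filter. In β cells, leaving out the 2 No Dox libraries high in stromal markers gave 18 at 1wk Dox and 20 at 1wk WD.

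Between cell types at No Dox, β cells against MΦs (11 called) gave 26 without the 2 β cell libraries low in stromal markers, 7 with only these groups fitted, and 6 to 18 with single libraries left out, the 18 being without β cell replicate 2, the 6 without MΦ replicate 4, and 7 without MΦ replicate 3. ECs against β cells (11 called) gave 25 without the same pair, where 37.8% of all genes were called. With single libraries left out it was 9 to 19, the 19 again without β cell replicate 2. ECs against MΦs (7 called) gave 12 with only these groups fitted. The interaction count of ECs against MΦs (0 called) was 1 with no filter and 0 to 1 with single libraries left out, and that of ECs against β cells (0 called) was 0 to 1. For the other settings of this paragraph the share of all genes called is not given. These counts show only how far the calls depend on processing.

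Of single genes, 1081 recomputed changes kept their call and sign, 72 lost the call, 13 gained it, and 8 reversed, none of the 8 from a called value. Col18a1 in ECs at 1wk WD was -0.045 without the 2 libraries highest in stromal markers and -0.076 to 0.114 with single libraries left out, below 0 without No Dox replicates 1 or 3 or 1wk WD replicates 1 or 2. Col15a1 in MΦs at 1wk WD was -0.274 to 0.046 with single libraries left out, above 0 without No Dox replicate 1. Col13a1 in the interaction of ECs with MΦs was -1.17 to 0.126, above 0 without MΦ 1wk WD replicate 4. Col3a1 in β cells at 1wk WD was -0.28 without the No Dox libraries low in stromal markers. The cause was not tested.

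Correlations of same-numbered samples ran from -0.48 to 0.38, and replicate numbers were not used to pair samples in the main fits. Whether same-numbered samples share islets is not given, and these correlations cannot decide it. With the replicate block, 7 collagens were called in ECs at 1wk WD, Col1a1 not among them, and 0 in MΦs at 1wk Dox, where Col27a1 had -1.32 (limma adjusted p = 0.161). Over all genes, no variance trend lowered the calls in ECs from 250 to 76, in MΦs at 1wk Dox from 340 to 52, and in MΦs at 1wk WD from 94 to 11. With only the groups compared, the MΦ counts were 38 and 49, with the block 3 and 43, and with no filter 37 at 1wk WD. Rounded scores without depth limit what can be said of collagens near the lowest score.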
